A study of Mus musculus with 3 samples.

Results

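Cushion mesenchyme nuclei of likely endocardial lineage were chosen by their UMIs in a few endothelial and mesenchymal genes from single-nucleus RNA sequencing of whole mouse hearts at embryonic day 9.5. A nucleus with at least 500 detected genes was taken as endothelial-type when it held a UMI (unique molecular identifier, a counted RNA molecule) in at least 4 of 11 endothelial genes. It was selected when it also held UMIs in at least 2 of Sox9, Pdgfra, Robo2 and Twist2 and in fewer genes of each of 7 other 4-gene sets, which mark other endocardial and endothelial states. The rule selected 285 nuclei among 7645 endothelial-type nuclei and 38192 nuclei with at least 500 genes, out of 38893 barcodes. Of these 285, 47 came from Ncx1-/- hearts, 76 from Ncx1+/- hearts and 162 from Ncx1+/+ hearts. The selected nuclei held 315483 UMIs in Ncx1-/-, 384535 in Ncx1+/- and 1038980 in Ncx1+/+.

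Cushion mesenchyme forms in the embryonic heart when endocardial cells, the endothelial lining of the heart tube, leave their layer and invade the cardiac jelly of the atrioventricular canal and outflow tract. This endothelial-to-mesenchymal transition (EndoMT) is driven by BMP and TGF-beta ligands and by Notch signals, runs through transcription factors such as Snai1, Twist1, Msx1, Tbx20 and Sox9, and yields the cells that build the valves and septa. Cells early in the transition still carry endothelial RNA beside mesenchymal RNA.

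Ncx1 is an alias of Slc8a1, a gene for an exchanger of sodium and calcium in the membrane of heart muscle cells. Embryos that lack it have no proper heartbeat and so no circulation, and by its title the study is about primary cilia and flow in EndoMT. The groups were Ncx1-/- (homozygous mutant), Ncx1+/- (heterozygous) and Ncx1+/+ (wild type), all taken at embryonic day 9.5 with no further treatment. Frozen whole hearts were pooled, 5 per genotype, and each pool gave 1 library, so that no genotype difference has a replicate check and no test between genotypes was possible. The labels do not say which part of Slc8a1 is deleted, and they name no lineage tracer, so that endocardial origin rests on the endothelial genes of the rule.

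The libraries held 12525 barcodes and 52985283 UMIs in Ncx1-/-, 12563 barcodes and 49022310 UMIs in Ncx1+/- and 13805 barcodes and 59898298 UMIs in Ncx1+/+. Barcodes shared between pairs of libraries numbered between 40 and 57, and no barcode of a selected nucleus was shared between libraries. Slc8a1 stood at 1026 CPM (counts scaled to equal library totals) over all Ncx1-/- nuclei, against 6534 CPM in Ncx1+/- and 11823 CPM in Ncx1+/+, so that its order was that of the labelled gene dose. Selected nuclei held a median of 6329 UMIs in Ncx1-/-, 4672 in Ncx1+/- and 5286 in Ncx1+/+, against 4400 in the other endothelial-type nuclei of Ncx1-/-, 4540 in those of Ncx1+/- and 5305 in those of Ncx1+/+.

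Selected nuclei were a smaller part of the endothelial-type nuclei in Ncx1-/- than in the other libraries. They made up 2.09% in Ncx1-/- (47 of 2244, exact binomial interval 1.54 to 2.78%), 3.04% in Ncx1+/- (76 of 2497, 2.41 to 3.79%) and 5.58% in Ncx1+/+ (162 of 2904, 4.77 to 6.48%). The Ncx1+/+ interval lay above both others, whereas those of Ncx1-/- and Ncx1+/- overlapped. Intervals are at 95% and cover counting error only, not differences between pools of hearts. The order of the 3 libraries was the same under each of the other settings run for the rule. With at least 3 of the 4 marker genes the shares were 0.668% in Ncx1-/-, 1.08% in Ncx1+/- and 2.65% in Ncx1+/+. With every nucleus thinned to 2000 UMIs, so that depth was equal, they were 0.822% in Ncx1-/- (14 nuclei), 1.66% in Ncx1+/- (33 nuclei) and 2.04% in Ncx1+/+ (46 nuclei). There the intervals of neighbouring libraries overlapped, and only those of Ncx1-/- and Ncx1+/+ did not.

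**Figure D1:**
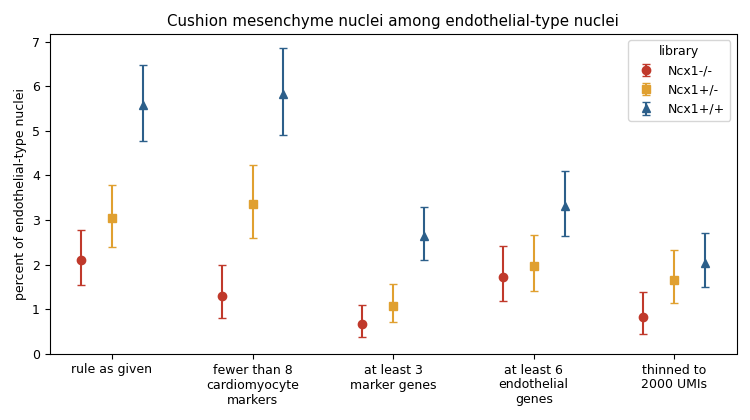
Percent of endothelial-type nuclei that met the selection rule, for 5 settings of the rule, with exact binomial intervals at 95% (counting error only) and 1 library per genotype. Ncx1-/- was lowest and Ncx1+/+ highest at each setting shown, with 2.09% in Ncx1-/-, 3.04% in Ncx1+/- and 5.58% in Ncx1+/+ under the rule as given and 0.822% in Ncx1-/-, 1.66% in Ncx1+/- and 2.04% in Ncx1+/+ after thinning.

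The marker genes of the rule were not detected alike in the 3 libraries. Sox9, the transcription factor that drives the chondrogenic side of cushion mesenchyme, had a UMI in 34.0% of selected nuclei in Ncx1-/- (16 of 47), 80.3% in Ncx1+/- (61 of 76) and 74.7% in Ncx1+/+ (121 of 162). Pdgfra, a receptor of platelet-derived growth factor, had one in 83.0% in Ncx1-/-, 67.1% in Ncx1+/- and 70.4% in Ncx1+/+. Robo2, a receptor of Slit guidance proteins, had one in 63.8% in Ncx1-/-, 51.3% in Ncx1+/- and 61.7% in Ncx1+/+. Twist2, a relative of Twist1, had one in 57.4% in Ncx1-/-, 40.8% in Ncx1+/- and 48.8% in Ncx1+/+. The pair found most often was Pdgfra with Robo2 in Ncx1-/- (11 of 47 nuclei), but Sox9 with Pdgfra in Ncx1+/- (16 of 76) and in Ncx1+/+ (27 of 162). These values follow from the rule and are given as a description.

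Of the 4 genes, Robo2 had the highest background. In cardiomyocyte-type nuclei (at least 9 of 12 cardiomyocyte markers and at most 1 endothelial gene), Robo2 had a UMI in 29.2% of nuclei in Ncx1-/-, 25.1% in Ncx1+/- and 23.3% in Ncx1+/+, at median depths of 3887 UMIs in Ncx1-/-, 3789 in Ncx1+/- and 4099 in Ncx1+/+. Sox9 had a UMI there in 0.659% in Ncx1-/-, 0.555% in Ncx1+/- and 1.09% in Ncx1+/+. Pdgfra had one in 5.99% in Ncx1-/-, 3.42% in Ncx1+/- and 3.43% in Ncx1+/+, and Twist2 in 2.28% in Ncx1-/-, 1.53% in Ncx1+/- and 1.16% in Ncx1+/+. In other endothelial-type nuclei Sox9 had a UMI in 3.82% in Ncx1-/-, 8.05% in Ncx1+/- and 10.9% in Ncx1+/+. At 2000 UMIs per nucleus the Sox9 share of selected nuclei was 21.3% in Ncx1-/-, 51.3% in Ncx1+/- and 43.8% in Ncx1+/+.

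Cardiomyocyte RNA was found in the selected nuclei, and most of all in those of Ncx1-/-. UMIs in at least 8 of 12 cardiomyocyte markers were present in 27 of 47 selected nuclei in Ncx1-/- (57.4%, 42.2 to 71.7%), 9 of 76 in Ncx1+/- (11.8%, 5.56 to 21.3%) and 26 of 162 in Ncx1+/+ (16.0%, 10.8 to 22.6%). In other endothelial-type nuclei the same share was 30.5% in Ncx1-/-, 20.2% in Ncx1+/- and 19.8% in Ncx1+/+. The 12 markers summed to 44.2% of their level in cardiomyocyte-type nuclei in Ncx1-/-, 12.7% in Ncx1+/- and 18.7% in Ncx1+/+. Slc8a1 in the selected nuclei stood at 513 CPM in Ncx1-/-, 947 in Ncx1+/- and 2449 in Ncx1+/+, which was 39.5, 10.5 and 14.4% of its level in the cardiomyocyte-type nuclei of Ncx1-/-, Ncx1+/- and Ncx1+/+. Doublet scores moved with this: 16 of 47 selected nuclei in Ncx1-/-, 9 of 76 in Ncx1+/- and 18 of 162 in Ncx1+/+ were among the 8% highest scores of their library.

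Genotype results are therefore also given for selected nuclei with UMIs in fewer than 8 of the 12 cardiomyocyte markers, a choice made after seeing the data. These were 20 nuclei in Ncx1-/-, 67 in Ncx1+/- and 136 in Ncx1+/+, called the low-cardiomyocyte nuclei below. They were 1.29% of the endothelial-type nuclei taken the same way in Ncx1-/-, 3.35% in Ncx1+/- and 5.82% in Ncx1+/+. Their cardiomyocyte markers summed to 11.8% of the cardiomyocyte-type level in Ncx1-/-, 6.12% in Ncx1+/- and 7.15% in Ncx1+/+. The 20 Ncx1-/- nuclei held 81054 UMIs in all, so that 1 count there equals 12.3 CPM. The 67 of Ncx1+/- held 320007 UMIs and the 136 of Ncx1+/+ 759126. A count of markers with a UMI rises with depth, so the limit leaves out deeper nuclei more readily. Depth was not matched between these nuclei.

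**Figure D2:**
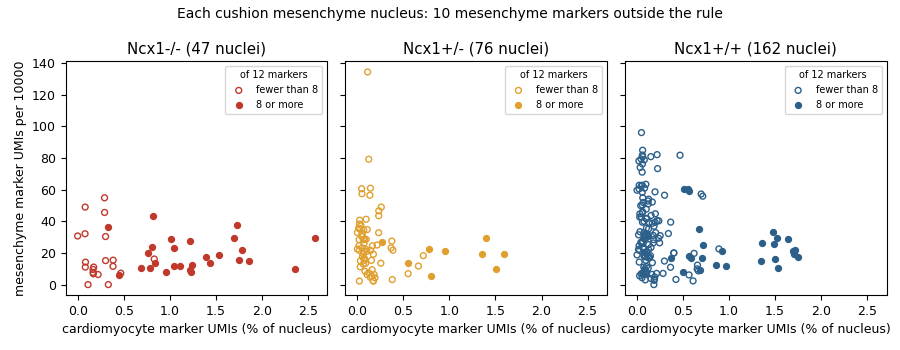
Each point is 1 selected nucleus, with its cardiomyocyte marker UMIs as a percent of all its UMIs (x axis) and its UMIs in 10 mesenchyme markers that the rule does not use, per 10000 UMIs (y axis). Filled points hold UMIs in at least 8 of 12 cardiomyocyte markers and make up 27 of 47 nuclei in Ncx1-/-, 9 of 76 in Ncx1+/- and 26 of 162 in Ncx1+/+.

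Mesenchyme markers outside the rule describe the label further. They were chosen with earlier results of these data known, so they are no independent check of it. The 10 such markers (Epha3, Twist1, Snai1, Prrx1, Prrx2, Msx1, Cdh11, Postn, Tnc and Vcan) had a median of 14.9 UMIs per 10000 in selected nuclei of Ncx1-/-, 21.9 in Ncx1+/- and 26.6 in Ncx1+/+. Other endothelial-type nuclei had 5.26 in Ncx1-/-, 7.33 in Ncx1+/- and 9.47 in Ncx1+/+. Vcan, one of the 10, was also abundant in cardiomyocyte-type nuclei (2042 CPM in Ncx1-/-, 1715 in Ncx1+/- and 1584 in Ncx1+/+) and does not tell mesenchyme from muscle. With the 4 rule genes added, the 14 mesenchyme markers summed to 2479 CPM in selected and 2442 in cardiomyocyte-type nuclei of Ncx1-/-. They summed to 3737 and 2120 CPM in Ncx1+/- and to 4322 and 1994 CPM in Ncx1+/+. This sum thus did not set the selected nuclei of Ncx1-/- apart from its cardiomyocyte-type nuclei. Epha3, an ephrin receptor with almost no RNA in cardiomyocyte-type nuclei (3.42 CPM in Ncx1-/-, 3.49 in Ncx1+/- and 3.49 in Ncx1+/+), stood at 72.9 CPM in Ncx1-/-, 192 in Ncx1+/- and 203 in Ncx1+/+ in selected nuclei. Msx1, a homeobox factor of cushion EndoMT, stood at 130.0 CPM in Ncx1-/-, 172 in Ncx1+/- and 165 in Ncx1+/+, against 36.2 CPM in Ncx1-/-, 58.7 in Ncx1+/- and 60.4 in Ncx1+/+ in other endothelial-type nuclei. Against other endothelial-type nuclei of the same library, 10 of the 10 markers were higher in Ncx1-/-, 8 in Ncx1+/- (not Prrx1 and Cdh11) and 9 in Ncx1+/+ (not Cdh11). The median log2 ratio over all measured genes was 0.07 in Ncx1-/-, 0.03 in Ncx1+/- and 0.03 in Ncx1+/+. In Ncx1-/- Postn had 1 count and Snai1 and Prrx1 4 each. Prrx2 and Tnc were higher in cardiomyocyte-type nuclei of Ncx1-/- (148 and 33.7 CPM) than in its selected nuclei (88.8 and 31.7 CPM). Among nuclei with UMIs in fewer than 8 cardiomyocyte markers, on both sides of the comparison, 6 of the 10 markers were higher in Ncx1-/-, 8 in Ncx1+/- and 9 in Ncx1+/+. There Tnc (12.3 against 16.2 CPM) and Cdh11 (185 against 209 CPM) were lower in selected nuclei of Ncx1-/-, and Prrx1 and Postn had 0 counts. Epha3 stood there at 185 CPM and Msx1 at 284 CPM in Ncx1-/-. The 10 markers had a median of 12.8 UMIs per 10000 in these 20 nuclei of Ncx1-/-, and of 15.5 in the other 27, which held most cardiomyocyte markers. The label is thus less sure in Ncx1-/- than in the other libraries.

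The levels of markers of other cell types differed by type. Of the 10 neural crest markers, Foxd3, Tfap2a, Tfap2b and Pax3 had 0 counts in the selected nuclei of all 3 libraries and Sox10 had 2 counts, both in Ncx1+/-. Ednrb, which endocardium also expresses, made up most of that list's sum. The sum was 187 CPM in Ncx1-/-, 174 in Ncx1+/- and 154 in Ncx1+/+. Other endothelial-type nuclei had 180 CPM in Ncx1-/-, 163 in Ncx1+/- and 114 in Ncx1+/+. In the low-cardiomyocyte nuclei of Ncx1-/- the sum was 333 CPM, on 27 counts of 1 marker. An epicardial gene (Wt1, Tbx18, Upk3b, Bnc1 or Aldh1a2) had a UMI in 5 of 47 selected nuclei in Ncx1-/-, 0 of 76 in Ncx1+/- (which allows up to 3.95%) and 5 of 162 in Ncx1+/+. The 11 epicardial markers summed to 206 CPM in Ncx1-/-, 62.4 CPM in Ncx1+/- and 79.9 CPM in Ncx1+/+, against 127 CPM in the other endothelial-type nuclei of Ncx1-/-, 83.1 CPM in those of Ncx1+/- and 84.8 CPM in those of Ncx1+/+. The 10 epithelial and endoderm markers summed to 76.1 CPM in Ncx1-/-, 15.6 CPM in Ncx1+/- and 15.4 CPM in Ncx1+/+, on 24 counts in Ncx1-/-, 6 in Ncx1+/- and 16 in Ncx1+/+, most of them of Krt18, a keratin. Their sum in the low-cardiomyocyte nuclei of Ncx1-/- rested on 2 counts, and Cdh1, Foxa2, Sox2, Shh and Cldn6 had 0 counts in selected nuclei. The 10 second heart field and pharyngeal mesoderm markers summed to 95.1 CPM in Ncx1-/-, 54.6 in Ncx1+/- and 78.0 in Ncx1+/+. Other endothelial-type nuclei had less, 49.4 CPM in Ncx1-/-, 48.4 in Ncx1+/- and 46.9 in Ncx1+/+. In the low-cardiomyocyte nuclei of Ncx1-/- this sum was 173 CPM, on 14 counts. Tcf21 is in both this list and the epicardial list, so their sums are not separate. The part of the epicardial, epithelial, neural crest and second heart field markers in the genotype results was not tested. Haemoglobin and other erythroid markers summed to 209 CPM in Ncx1-/-, 481 CPM in Ncx1+/- and 349 CPM in Ncx1+/+, close to their sums in other endothelial-type nuclei (195 CPM in Ncx1-/-, 435 CPM in Ncx1+/- and 402 CPM in Ncx1+/+). Ptprc, Csf1r and Spi1, markers of blood cells and macrophages, had 0 counts.

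At the edge of the rule, 55 nuclei in Ncx1-/-, 63 in Ncx1+/- and 113 in Ncx1+/+ had 2 or more of the 4 genes but tied with another set, and stayed outside. In these tied nuclei Epha3 stood at 12.5 CPM in Ncx1-/-, 18.4 CPM in Ncx1+/- and 125 CPM in Ncx1+/+, and Msx1 at 58.9 CPM in Ncx1-/-, 75.7 CPM in Ncx1+/- and 104 CPM in Ncx1+/+. At least 8 cardiomyocyte markers were present in 41 of the 55 tied nuclei of Ncx1-/-, 30 of the 63 of Ncx1+/- and 39 of the 113 of Ncx1+/+. Just inside the limit of 4 endothelial genes lay 4 nuclei in Ncx1-/-, 9 in Ncx1+/- and 50 in Ncx1+/+. Just outside it, with 3 endothelial genes, lay 12 nuclei in Ncx1-/-, 22 in Ncx1+/- and 35 in Ncx1+/+. Selected nuclei held a median of 6 endothelial genes in Ncx1-/-, 6 in Ncx1+/- and 5.5 in Ncx1+/+, against 8 in the other endothelial-type nuclei of each library.

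Against the other endothelial-type nuclei of the same library, 264 of 12261 genes (2.15%) were at least 1.5 times higher in the selected nuclei of all 3 libraries and 266 (2.17%) at least 1.5 times lower. The 43 genes of the rule were left out. A gene counted here with at least 100 counts over both kinds of nuclei. The rule itself drew this contrast, so the ratios describe the nuclei and support nothing further, and the genes that rank furthest include some with few counts. With the Ncx1-/- library left out, 530 genes were higher and 617 lower in the other 2 libraries.

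The genes furthest above the other endothelial-type nuclei included matrix and guidance genes. Cthrc1, a secreted protein of collagen-making cells, stood at 19.0 CPM in Ncx1-/-, 39.0 in Ncx1+/- and 35.6 in Ncx1+/+, against 1.10 CPM in Ncx1-/-, 5.09 in Ncx1+/- and 4.93 in Ncx1+/+ in other endothelial-type nuclei. Its counts were 6 in Ncx1-/-, 15 in Ncx1+/- and 37 in Ncx1+/+. Epha3 was 11.2 times higher in Ncx1-/-, 16.5 times in Ncx1+/- and 6.36 times in Ncx1+/+. Ntng1, a netrin-type membrane protein, stood at 63.4 CPM in Ncx1-/-, 44.2 in Ncx1+/- and 85.7 in Ncx1+/+, against 9.79 CPM in Ncx1-/-, 11.3 in Ncx1+/- and 12.5 in Ncx1+/+ in other endothelial-type nuclei. Col9a1, a cartilage collagen, stood at 6.34 CPM in Ncx1-/-, 36.4 in Ncx1+/- and 35.6 in Ncx1+/+, on 2 counts in Ncx1-/-, 14 in Ncx1+/- and 37 in Ncx1+/+. Garnl3, a GTPase-activating domain protein, stood at 69.7 CPM in Ncx1-/-, 221 in Ncx1+/- and 209.8 in Ncx1+/+, against 19.7 CPM in Ncx1-/-, 24.3 in Ncx1+/- and 33.3 in Ncx1+/+. Rgma, a co-receptor for BMP ligands, Tcf21, a mesenchymal and epicardial factor, Npvf, Nrg4, Slc13a4, Akr1b8, Slc41a2, Ppp2r2b, Tmem179 and Pde1a completed the 15 highest, each below 100 CPM in the selected nuclei of every library.

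Each list by role counted below had a larger share of genes at least 1.5-fold higher in all 3 libraries than all measured genes. Over all measured genes 2.15% were higher and 2.17% lower. Of 53 measured cilia genes and 31 growth factors and their receptors, none was higher. Because the rule drew this contrast, these shares are a description. Of 26 measured EndoMT transcription factors, 5 were higher in all 3 libraries and none lower, among them Msx1 and Tbx20. Tbx20, a T-box factor of the cushions, stood at 1392 CPM in Ncx1-/-, 2673 in Ncx1+/- and 2616 in Ncx1+/+, against 654 CPM in Ncx1-/-, 1192 in Ncx1+/- and 1370.5 in Ncx1+/+ in other endothelial-type nuclei. Of 37 matrix genes, 5 were higher and 2 lower, with a median log2 ratio of 0.12. Vcan, the versican core protein of cardiac jelly, stood at 1284 CPM in Ncx1-/-, 1631 in Ncx1+/- and 2006 in Ncx1+/+, against 702 CPM in Ncx1-/-, 659.7 in Ncx1+/- and 731 in Ncx1+/+. Has2, the synthase of hyaluronan, stood at 415 CPM in Ncx1-/-, 627 in Ncx1+/- and 516 in Ncx1+/+, against 203 CPM in Ncx1-/-, 258 in Ncx1+/- and 266 in Ncx1+/+. The lower pair was Col4a1 and Col4a2, the basement membrane collagens, with Col4a1 at 199.7 CPM in Ncx1-/-, 182 in Ncx1+/- and 188 in Ncx1+/+ against 385 CPM in Ncx1-/-, 483 in Ncx1+/- and 485 in Ncx1+/+. Of 10 chondrogenic and valve genes, 5 were higher, among them Sox5 and Sox6, the partners of Sox9 in cartilage. Sox5 stood at 355 CPM in Ncx1-/-, 1162 in Ncx1+/- and 1289.7 in Ncx1+/+, against 173 CPM in Ncx1-/-, 259.7 in Ncx1+/- and 338 in Ncx1+/+. Of 31 basement membrane and adhesion genes, 3 were higher and 2 lower, with a median log2 ratio of -0.18. Ncam1, a neural cell adhesion molecule, stood at 389.9 CPM in Ncx1-/-, 1454 in Ncx1+/- and 1549.6 in Ncx1+/+, against 198 CPM in Ncx1-/-, 369 in Ncx1+/- and 502 in Ncx1+/+. Itga4, the alpha subunit of a fibronectin and VCAM1 receptor, stood at 22.2 CPM in Ncx1-/-, 80.6 in Ncx1+/- and 84.7 in Ncx1+/+, against 8.27 CPM in Ncx1-/-, 14.7 in Ncx1+/- and 17.2 in Ncx1+/+. Unc5c, a netrin receptor, stood at 621 CPM in Ncx1-/-, 941 in Ncx1+/- and 1058 in Ncx1+/+, against 144 CPM in Ncx1-/-, 256 in Ncx1+/- and 332 in Ncx1+/+.

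Endothelial genes outside the rule ran the other way. Of 37 measured, 15 were lower in all 3 libraries and none higher, beside 2.17% lower and 2.15% higher over all measured genes. Fli1, an ETS factor of endothelium, stood at 238 CPM in Ncx1-/-, 270.5 in Ncx1+/- and 318 in Ncx1+/+, against 523 CPM in Ncx1-/-, 608 in Ncx1+/- and 650.0 in Ncx1+/+ in other endothelial-type nuclei. Npr3, an endocardial natriuretic peptide receptor, stood at 259.9 CPM in Ncx1-/-, 263 in Ncx1+/- and 149 in Ncx1+/+, against 532 CPM in Ncx1-/-, 689.8 in Ncx1+/- and 624 in Ncx1+/+. Klf2, the flow-responsive zinc finger factor, stood at 38.0 CPM in Ncx1-/-, 88.4 in Ncx1+/- and 87.6 in Ncx1+/+, against 114 CPM in Ncx1-/-, 149 in Ncx1+/- and 154 in Ncx1+/+. Among the 10 lowest, Ptpre, a tyrosine phosphatase, stood at 12.7 CPM in Ncx1-/-, 2.60 in Ncx1+/- and 4.81 in Ncx1+/+, against 65.9 CPM in Ncx1-/-, 54.3 in Ncx1+/- and 42.4 in Ncx1+/+. Tll1, a protease of the BMP1 family, stood at 53.9 CPM in Ncx1-/-, 7.80 in Ncx1+/- and 24.1 in Ncx1+/+, against 241 CPM in Ncx1-/-, 161 in Ncx1+/- and 117 in Ncx1+/+. St8sia1, a sialyltransferase, and Zfp69, a zinc finger protein, were also among them. The other 6 of the 10 rest on very few counts in selected nuclei: Adgrg3, Icam1 and H2-D1 each had 1 count, in Ncx1+/+, Bdkrb2 had 0, and Hivep3 and Cd109 had at most 6 in any library, so that no ratio is given for them.

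**Figure D3:**
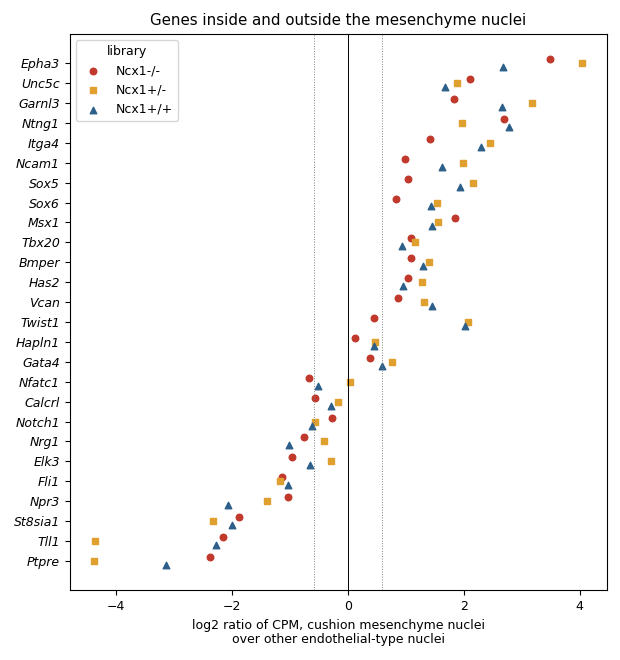
log2 ratio of CPM in selected nuclei over CPM in the other endothelial-type nuclei of the same library, for 26 genes outside the rule, with dotted lines at 1.5-fold in each direction. Epha3, Unc5c and Ntng1 lie right of the line in all 3 libraries, Fli1, Npr3, Tll1 and Ptpre left of it, and Twist1 and Hapln1 differ between libraries.

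Nfatc1, an endocardial factor, and Notch1, a receptor of the Notch pathway, did not pass 1.5-fold in all 3 libraries. Nfatc1 stood at 174 CPM in Ncx1-/-, 408 in Ncx1+/- and 318 in Ncx1+/+, against 278 CPM in Ncx1-/-, 398 in Ncx1+/- and 452 in Ncx1+/+ in other endothelial-type nuclei. Notch1 stood at 91.9 CPM in Ncx1-/-, 91.0 in Ncx1+/- and 102 in Ncx1+/+, against 112 CPM in Ncx1-/-, 136 in Ncx1+/- and 156 in Ncx1+/+. Hey1 and Heyl, targets of Notch signalling, had at most 10 and 2 counts in any library. Snai1 had 4 counts in Ncx1-/-, 7 in Ncx1+/- and 23 in Ncx1+/+ and Snai2 1 in Ncx1-/-, 2 in Ncx1+/- and 2 in Ncx1+/+, too few to compare genotypes. Postn, a matrix protein of maturing valves, had 1 count in Ncx1-/-, 2 in Ncx1+/- and 39 in Ncx1+/+. Of 55 measured cell cycle genes, 0 were past 1.5-fold in all 3 libraries, with a median log2 ratio of 0.04, against 0.04 over all measured genes.

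Another endocardial state of the rule, with Dkk2, Ano1, St6galnac5 and Pmepa1, held 0 of 2244 endothelial-type nuclei in Ncx1-/-, which allows a share of up to 0.134%, 48 in Ncx1+/- and 101 in Ncx1+/+. Hapln1, the link protein that ties versican to hyaluronan, stood in selected nuclei at 3690.2 CPM in Ncx1+/- and 3707 in Ncx1+/+, against 3292 CPM in Ncx1+/- and 3465 in Ncx1+/+ in that state. Tbx20 stood in selected nuclei at 2673 CPM in Ncx1+/- and 2616 in Ncx1+/+, against 1800.4 CPM in Ncx1+/- and 1979 in Ncx1+/+ in that state. Epha3 stood in selected nuclei at 192 CPM in Ncx1+/- and 203 in Ncx1+/+, against 0 CPM in Ncx1+/- and 72.1 in Ncx1+/+ in that state. Sox6 stood in selected nuclei at 3675 CPM in Ncx1+/- and 3659 in Ncx1+/+, against 2895 CPM in Ncx1+/- and 3139 in Ncx1+/+ in that state. Gene sets chose both kinds of nuclei, so these differences have no test.

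Between genotypes, a call of higher or lower in one library needed a CPM at least 1.5 times above, or below, each of the others, with 1 outside the 95% counting interval (exact, conditional on the sum) of both ratios. These intervals treat each UMI as independent and leave out spread between nuclei and between pools of hearts. Of 3852 genes with at least 100 counts over the selected nuclei, 236 (6.13%) were higher and 329 (8.54%) lower in Ncx1-/-. Scaled by TMM factors in place of total counts, 182 were higher and 494 lower, and by median-of-ratios factors 198 were higher and 422 lower. The higher genes were thus 41.8% of calls by total counts, 26.9% by TMM and 31.9% by median-of-ratios. The median log2 ratio of Ncx1-/- over Ncx1+/+ across all measured genes was -0.10 by total counts, -0.24 by TMM and -0.17 by median-of-ratios. Among low-cardiomyocyte nuclei, 109 of 2723 measured genes (4%) were higher in Ncx1-/- and 150 (5.51%) lower. Of the 236 higher genes, 105 could be measured there and 46 were higher there too; of the 329 lower genes, 304 could be measured and 95 were lower there too. In the other endothelial-type nuclei 1018 of 12246 genes (8.31%) were higher in Ncx1-/- and 446 (3.64%) lower. There 81 of the 236 higher genes and 113 of the 329 lower genes were called in the same direction, and 0 in the opposite one. Cardiomyocyte-type nuclei of Ncx1-/- had at least 1.5 times the level of low-cardiomyocyte endothelial nuclei for 135 of the 236 higher genes (57.2%), 17 of the 329 lower genes (5.17%) and 402 of all 3852 (10.4%).

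Genes of glycolysis and the hypoxia response were higher in Ncx1-/-. Of 23 measured members of this list, 21 were higher and none lower, beside 6.13% and 8.54% of all measured genes. The median log2 ratio of the list was 1.65 over Ncx1+/+ and 1.66 over Ncx1+/-, against -0.10 and -0.11 over all measured genes. Among low-cardiomyocyte nuclei, 9 members had enough counts to be measured. Of these, 7 were higher and none lower, beside 4% higher over all measured genes. Of the 23 genes, 21 stood above both other libraries there, most of them below the count minimum. The share of all genes that did so was not counted. Cells switch this programme on through hypoxia-inducible factors, which bind a short core motif, ACGTG or GCGTG, near their target genes.

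The promoters of 3 genes of this list are shown with that motif, because the genes carried large and well-counted differences. They are the 250 bases before the gene start in RefSeq, build GRCm38.p6, plus strand, with each ACGTG or GCGTG in capitals, which reads CACGT or CACGC where it lies on the minus strand. Ldha lies at chr7:46845554-46845803, Pdk1 at chr2:71872974-71873223 and Slc2a1 at chr4:119108495-119108744.
Ldha: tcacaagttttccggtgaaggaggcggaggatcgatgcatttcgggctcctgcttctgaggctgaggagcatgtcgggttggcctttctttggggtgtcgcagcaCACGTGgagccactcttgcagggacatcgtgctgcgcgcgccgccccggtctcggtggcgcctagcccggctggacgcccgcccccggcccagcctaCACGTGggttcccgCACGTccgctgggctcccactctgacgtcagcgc
Pdk1: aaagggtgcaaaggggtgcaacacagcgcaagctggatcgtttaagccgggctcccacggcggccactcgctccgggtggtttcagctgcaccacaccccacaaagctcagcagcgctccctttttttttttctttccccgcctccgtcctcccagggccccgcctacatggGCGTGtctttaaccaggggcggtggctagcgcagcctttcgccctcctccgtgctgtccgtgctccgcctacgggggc
Slc2a1: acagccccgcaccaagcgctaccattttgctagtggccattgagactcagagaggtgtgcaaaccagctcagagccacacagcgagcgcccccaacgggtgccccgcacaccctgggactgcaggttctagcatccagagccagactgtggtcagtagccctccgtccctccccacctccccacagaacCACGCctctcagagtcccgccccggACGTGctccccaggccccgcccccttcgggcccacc
The Ldha window held 5 matches, counting each palindromic CACGTG on both strands, the Pdk1 window 1 and the Slc2a1 window 2. At least 1 match was found before 14 of 18 genes of the list that were higher in Ncx1-/- and matched the RefSeq table (77.8%). The share was 60.8% for 2989 measured genes and 38.6% for all 32851 promoters of the table. Aldoa, Pkm, Tpi1 and Vegfa, also called higher, had 0 matches. The list was chosen for the hypoxia response and glycolysis, so its share describes the list and tests nothing in these data. A match is a description of these letters and no binding was measured.

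Slc2a1, the glucose transporter GLUT1, had 154 counts in Ncx1-/-, 27 in Ncx1+/- and 84 in Ncx1+/+, or 488 CPM in Ncx1-/-, 70.2 in Ncx1+/- and 80.8 in Ncx1+/+. That is 6.04 (4.6 to 7.97) times Ncx1+/+ and 6.95 (4.6 to 10.9) times Ncx1+/-. Its level in low-cardiomyocyte nuclei was 185 CPM in Ncx1-/-, 25.0 in Ncx1+/- and 25.0 in Ncx1+/+. Pdk1, a kinase that inhibits pyruvate dehydrogenase, stood at 276 CPM in Ncx1-/-, 57.2 in Ncx1+/- and 45.2 in Ncx1+/+. In the low-cardiomyocyte nuclei Pdk1 stood at 209.7 CPM in Ncx1-/-, 40.6 in Ncx1+/- and 25.0 in Ncx1+/+. Ldha, which makes lactate, stood at 567 CPM in Ncx1-/-, 166 in Ncx1+/- and 159.8 in Ncx1+/+, and at 506 CPM in Ncx1-/-, 150.0 in Ncx1+/- and 121 in Ncx1+/+ in the low-cardiomyocyte nuclei. For all 3 genes Ncx1-/- was the highest library in both sets of nuclei. A UMI of Slc2a1 was found in 76.6% of selected nuclei in Ncx1-/-, 17.1% in Ncx1+/- and 21.6% in Ncx1+/+. At 2000 UMIs per nucleus the share was 53.2% in Ncx1-/-, 7.89% in Ncx1+/- and 6.79% in Ncx1+/+. In other endothelial-type nuclei, at their full depth, it was 66.8% in Ncx1-/-, 35.3% in Ncx1+/- and 31.2% in Ncx1+/+, and in cardiomyocyte-type nuclei 86.3% in Ncx1-/-, 76.0% in Ncx1+/- and 75.4% in Ncx1+/+.

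Along the pathway, Hk2, the entry hexokinase, stood at 694 CPM in Ncx1-/-, 174 in Ncx1+/- and 166 in Ncx1+/+. Aldoa, an aldolase, stood at 352 CPM in Ncx1-/-, 133 in Ncx1+/- and 120.3 in Ncx1+/+. Pkm, the pyruvate kinase, stood at 472 CPM in Ncx1-/-, 151 in Ncx1+/- and 179 in Ncx1+/+. These 3 were also called higher in the low-cardiomyocyte nuclei, with Hk2 at 518 CPM in Ncx1-/-, 162 in Ncx1+/- and 113 in Ncx1+/+. Of the same list, Slc2a3, Tpi1, Gapdh, Pgk1, Pgam1, Eno1, Bnip3l, Egln1, P4ha1, Plod2, Kdm3a, Higd1a, Fam162a, Pfkp and Vegfa were higher too. Vegfa, the growth factor of endothelium, stood at 181 CPM in Ncx1-/-, 54.6 in Ncx1+/- and 37.5 in Ncx1+/+. Pfkp, a phosphofructokinase, stood at 231 CPM in Ncx1-/-, 46.8 in Ncx1+/- and 53.9 in Ncx1+/+ in all selected nuclei, but at 12.3 CPM in Ncx1-/-, 25.0 in Ncx1+/- and 17.1 in Ncx1+/+ in the low-cardiomyocyte nuclei, on 1 count in Ncx1-/-, 8 in Ncx1+/- and 13 in Ncx1+/+, where Ncx1-/- was not its highest library. Pdk3 and Mxi1 did not stand apart, and Pdk3 stood at 49.3 CPM in Ncx1-/-, 68.7 in Ncx1+/- and 44.8 in Ncx1+/+ in the low-cardiomyocyte nuclei.

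The same list was higher in the other endothelial-type nuclei of Ncx1-/-, with a median log2 ratio of 1.53 over Ncx1+/+, and all 23 genes stood above both other libraries there. In cardiomyocyte-type nuclei 22 of 23 did. The ratio of Ncx1-/- over Ncx1+/+ was larger in selected nuclei than in cardiomyocyte-type nuclei for 21 of 23 genes. It was larger than in other endothelial-type nuclei for 16 of 23. The 12 cardiomyocyte markers summed in selected nuclei to 44.2% of their cardiomyocyte-type level in Ncx1-/- and 18.7% in Ncx1+/+. The part of this unequal cardiomyocyte RNA in the ratios was not tested. Slc2a1 stood at 766 CPM in Ncx1-/-, 545 in Ncx1+/- and 535 in Ncx1+/+ in cardiomyocyte-type nuclei. In the selected nuclei of Ncx1-/-, 7 of the 23 genes lay above their level in the cardiomyocyte-type nuclei of the same library. The shares of all measured genes that met these comparisons were not counted, so the counts of the 23 have no background beside them.

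**Figure D4:**
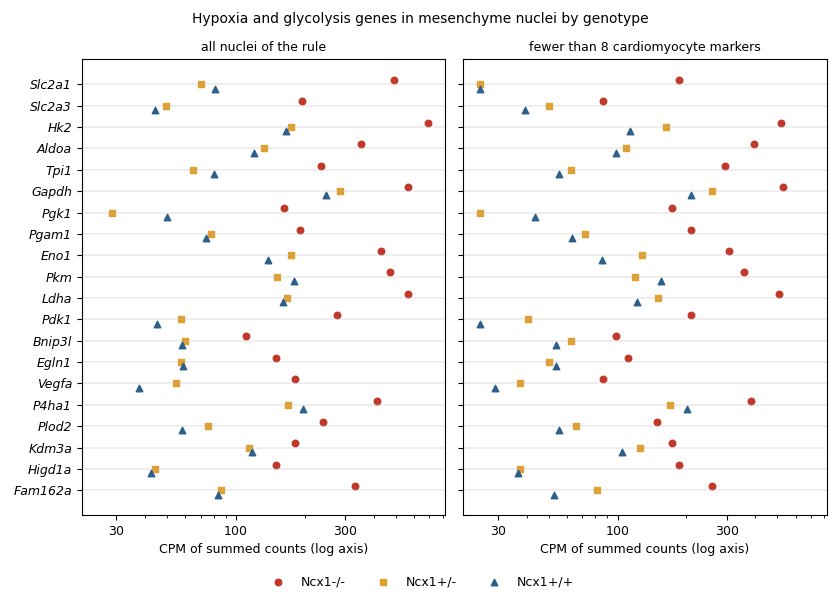
CPM of summed counts (log axis) of 20 hypoxia and glycolysis genes in selected nuclei of each library, for all 285 nuclei (left) and for those with fewer than 8 cardiomyocyte markers (right). Ncx1-/- is the highest library for each of these 20 genes in both panels, and the measured genes not drawn are Mxi1 and, with Ncx1-/- not highest in the low-cardiomyocyte nuclei, Pfkp and Pdk3.

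Several cushion transcription factors were lower in Ncx1-/-. Of 19 measured EndoMT factors 7 were lower and none higher, beside 8.54% lower and 6.13% higher over all measured genes. Their median log2 ratio was -0.33 over Ncx1+/+. The 7 were Twist1, Zeb2, Tbx20, Gata4, Gata6, Nfatc1 and Smad6. In the low-cardiomyocyte nuclei 3 of 18 were lower, beside 5.51% over all measured genes. These were Tbx20, Nfatc1 and Runx1t1, a co-repressor. Twist1, a basic helix-loop-helix factor of mesenchyme, stood at 22.2 CPM in Ncx1-/-, 83.2 in Ncx1+/- and 94.3 in Ncx1+/+, on 7 counts in Ncx1-/-, 32 in Ncx1+/- and 98 in Ncx1+/+. In the low-cardiomyocyte nuclei it stood at 61.7 CPM in Ncx1-/-, 90.6 in Ncx1+/- and 116 in Ncx1+/+, and 5 counts in Ncx1-/- left the ratio to Ncx1+/+ between 0.169 and 1.29. Thinned to 2000 UMIs per nucleus, where 14 Ncx1-/- nuclei remained, its log2 ratio over Ncx1+/+ turned to 0.34. Tbx20 stood at 1392 CPM in Ncx1-/-, 2673 in Ncx1+/- and 2616 in Ncx1+/+, and at 1888 CPM in Ncx1-/-, 2844 in Ncx1+/- and 2960.0 in Ncx1+/+ in the low-cardiomyocyte nuclei. Zeb2, a repressor of epithelial genes, stood at 539 CPM in Ncx1-/-, 986 in Ncx1+/- and 1055 in Ncx1+/+ but at 999 CPM in Ncx1-/-, 978 in Ncx1+/- and 1141 in Ncx1+/+ in the low-cardiomyocyte nuclei, where the libraries lay close together. Gata4, a cardiac zinc finger factor, stood at 1125 CPM in Ncx1-/-, 1799.6 in Ncx1+/- and 1707 in Ncx1+/+, and at 1616 CPM in Ncx1-/-, 1881 in Ncx1+/- and 1893 in Ncx1+/+ in the low-cardiomyocyte nuclei.

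Sox9 and its partners Sox5 and Sox6 were called lower in Ncx1-/-. Sox9 was used by the rule, so its level is a description: it stood at 79.2 CPM in Ncx1-/-, 294 in Ncx1+/- and 225 in Ncx1+/+, and at 136 CPM in Ncx1-/-, 319 in Ncx1+/- and 266 in Ncx1+/+ in the low-cardiomyocyte nuclei. Among only the selected nuclei with a Sox9 UMI, its level in Ncx1-/- was 285 CPM, against 362 CPM in Ncx1+/- and 284 CPM in Ncx1+/+. Sox5 stood at 355 CPM in Ncx1-/-, 1162 in Ncx1+/- and 1289.7 in Ncx1+/+, and at 740.2 CPM in Ncx1-/-, 1272 in Ncx1+/- and 1539.9 in Ncx1+/+ in the low-cardiomyocyte nuclei, lower in Ncx1-/- in both. Sox6 stood at 1249 CPM in Ncx1-/-, 3675 in Ncx1+/- and 3659 in Ncx1+/+ and at 2998 CPM in Ncx1-/-, 4175 in Ncx1+/- and 4399.8 in Ncx1+/+ in the low-cardiomyocyte nuclei, where it was no longer called. Msx1 was not called, and Epha3 was called lower in all selected nuclei but not in the low-cardiomyocyte ones, and its log2 ratio over Ncx1+/+ turned to 0.67 at 2000 UMIs per nucleus.

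Several matrix genes were lower in Ncx1-/-. Of 16 measured, 7 were lower and none higher, beside 8.54% lower and 6.13% higher over all measured genes. Their median log2 ratio was -0.70 over Ncx1+/+. Among low-cardiomyocyte nuclei 3 of 13 were lower, Vcan, Col3a1 and Tnc, beside 5.51% over all measured genes. Tnc, tenascin C, an adhesion-modulating glycoprotein of moving mesenchyme, had 10 counts in Ncx1-/-, 45 in Ncx1+/- and 304 in Ncx1+/+, or 31.7 CPM in Ncx1-/-, 117 in Ncx1+/- and 293 in Ncx1+/+. That is 0.108 (0.0514 to 0.202) of Ncx1+/+ and 0.271 (0.122 to 0.545) of Ncx1+/-, and Ncx1+/- lay between the others. Its low-cardiomyocyte nuclei had 1 count in Ncx1-/-, 43 in Ncx1+/- and 244 in Ncx1+/+, or 12.3 CPM in Ncx1-/-, 134 in Ncx1+/- and 321 in Ncx1+/+. Col3a1, a fibrillar collagen, stood at 34.9 CPM in Ncx1-/-, 75.4 in Ncx1+/- and 135 in Ncx1+/+, and at 12.3 CPM in Ncx1-/-, 87.5 in Ncx1+/- and 148 in Ncx1+/+ in the low-cardiomyocyte nuclei, where Ncx1-/- had 1 count. The other endothelial-type nuclei of Ncx1-/- were low in Col3a1 too, with 15.1 CPM in Ncx1-/-, 105 in Ncx1+/- and 125 in Ncx1+/+.

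Genes of the hyaluronan and versican matrix differed among themselves. Hapln1 stood at 1658 CPM in Ncx1-/-, 3690.2 in Ncx1+/- and 3707 in Ncx1+/+, but at 3134 CPM in Ncx1-/-, 3975 in Ncx1+/- and 4355 in Ncx1+/+ in the low-cardiomyocyte nuclei, where it was not called. Vcan stood at 1284 CPM in Ncx1-/-, 1631 in Ncx1+/- and 2006 in Ncx1+/+, not called, but at 950.0 CPM in Ncx1-/-, 1647 in Ncx1+/- and 2146 in Ncx1+/+ in the low-cardiomyocyte nuclei, where it was lower. Cardiomyocyte-type nuclei are themselves rich in Vcan and nearly free of Hapln1 (22.2 CPM in Ncx1-/-, 30.7 in Ncx1+/- and 41.0 in Ncx1+/+). Has2 was not called in either, and stood at 851 CPM in Ncx1-/-, 675 in Ncx1+/- and 578 in Ncx1+/+ in the low-cardiomyocyte nuclei, highest in Ncx1-/-. Fn1, fibronectin, stood at 1255 CPM in Ncx1-/-, 2424 in Ncx1+/- and 2348 in Ncx1+/+, and at 1838 CPM in Ncx1-/-, 2591 in Ncx1+/- and 2735 in Ncx1+/+ in the low-cardiomyocyte nuclei, no longer called. Fbn1, Fbn2 and Col5a2, of fibrillin and collagen fibres, were lower in all selected nuclei and not in the low-cardiomyocyte ones.

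Signals and their receptors differed in both directions. Of 3 measured BMP and TGF-beta ligands, Bmp6 was lower in Ncx1-/- and Bmp5 higher. Of 14 receptors and modulators 2 were lower, Bmper and Ltbp1. That is near the background of 8.54% lower over all measured genes and no result about the group. Of 14 growth factors and their receptors 4 were higher and 2 lower, beside 6.13% and 8.54% of all measured genes. Bmp6, a BMP ligand of the cushions, stood at 95.1 CPM in Ncx1-/-, 216 in Ncx1+/- and 218 in Ncx1+/+, and at 111 CPM in Ncx1-/-, 237 in Ncx1+/- and 279 in Ncx1+/+ in the low-cardiomyocyte nuclei, lower in Ncx1-/- in both. Nrg1, the endocardial neuregulin that signals to heart muscle, stood at 317 CPM in Ncx1-/-, 1261 in Ncx1+/- and 988 in Ncx1+/+, and at 469 CPM in Ncx1-/-, 1222 in Ncx1+/- and 949.8 in Ncx1+/+ in the low-cardiomyocyte nuclei, again lower in both. Bmper, a BMP-binding modulator, stood at 387 CPM in Ncx1-/-, 1056 in Ncx1+/- and 1047 in Ncx1+/+, and at 999 CPM in Ncx1-/-, 1216 in Ncx1+/- and 1273 in Ncx1+/+ in the low-cardiomyocyte nuclei, where it was not called. Ltbp1, which stores latent TGF-beta, stood at 567 CPM in Ncx1-/-, 1149 in Ncx1+/- and 1009.6 in Ncx1+/+, and at 999 CPM in Ncx1-/-, 1231 in Ncx1+/- and 1149 in Ncx1+/+ in the low-cardiomyocyte nuclei. Tgfb2 (206 CPM in Ncx1-/-, 379.7 in Ncx1+/- and 304 in Ncx1+/+) was not called. Tgfbr3, the TGF-beta type III receptor, stood at 422 CPM in Ncx1-/-, 369 in Ncx1+/- and 265 in Ncx1+/+, not called, and at 592 CPM in Ncx1-/-, 353 in Ncx1+/- and 249 in Ncx1+/+ in the low-cardiomyocyte nuclei, where it was higher in Ncx1-/-. None of the type I and type II receptors measured (Bmpr1a, Bmpr2, Acvr1, Acvr2a, Tgfbr1, Tgfbr2) was called. In the Notch list 1 of 9 was lower, Maml2, a co-activator, and 0 of 7 in the low-cardiomyocyte nuclei, which is near the background of 8.54% and no result about the pathway.

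Adhesion, guidance and hedgehog genes were lower in part. Ncam1 stood at 389.9 CPM in Ncx1-/-, 1454 in Ncx1+/- and 1549.6 in Ncx1+/+, and at 864 CPM in Ncx1-/-, 1569 in Ncx1+/- and 1890.3 in Ncx1+/+ in the low-cardiomyocyte nuclei, lower in both. Itga4 stood at 22.2 CPM in Ncx1-/-, 80.6 in Ncx1+/- and 84.7 in Ncx1+/+, and at 74.0 CPM in Ncx1-/-, 90.6 in Ncx1+/- and 109 in Ncx1+/+ in the low-cardiomyocyte nuclei, not called there. Of 22 adhesion genes, 5 were lower and 1 higher, beside 8.54% lower and 6.13% higher over all measured genes. In the low-cardiomyocyte nuclei 2 of 21 were lower, Ncam1 and Lama4, and 0 higher, beside 5.51% lower over all. Of 18 guidance genes, 6 were lower and 1 higher, beside 8.54% and 6.13% of all measured genes. In the low-cardiomyocyte nuclei 3 of 16 were lower and 0 higher, beside 5.51% lower over all. Plxna4, a semaphorin receptor, stood at 304 CPM in Ncx1-/-, 557 in Ncx1+/- and 714 in Ncx1+/+, and at 173 CPM in Ncx1-/-, 569 in Ncx1+/- and 749.5 in Ncx1+/+ in the low-cardiomyocyte nuclei, lower in both, as was Sema6a. Of 6 hedgehog genes 3 were lower, Gli3, Boc and Cdon, beside 8.54% of all measured genes. Boc, a co-receptor of hedgehog ligands, had 5 counts in Ncx1-/-, 31 in Ncx1+/- and 95 in Ncx1+/+, or 15.8 CPM in Ncx1-/-, 80.6 in Ncx1+/- and 91.4 in Ncx1+/+. In the low-cardiomyocyte nuclei Boc had 0 counts in Ncx1-/-, against 30 in Ncx1+/- and 78 in Ncx1+/+. Gli3, a hedgehog effector, stood at 216 CPM in Ncx1-/-, 481 in Ncx1+/- and 566 in Ncx1+/+, and at 271 CPM in Ncx1-/-, 516 in Ncx1+/- and 635 in Ncx1+/+ in the low-cardiomyocyte nuclei, lower in both.

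**Figure D5:**
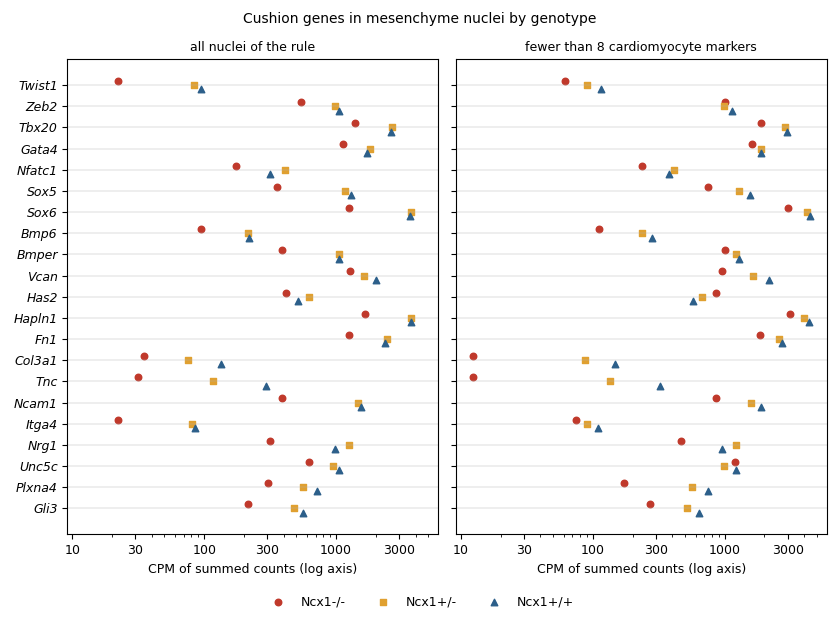
CPM of summed counts (log axis) of 21 cushion genes in selected nuclei of each library, for all 285 nuclei (left) and for those with fewer than 8 cardiomyocyte markers (right). Tnc, Col3a1, Ncam1, Nrg1, Plxna4 and Gli3 stay lowest in Ncx1-/- in both panels, whereas Zeb2, Has2 and Unc5c do not.

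Flow-responsive and cilia genes were sparse. Of 15 flow and mechanosensor genes, Klf2, Klf7 and Ece1 were lower in Ncx1-/- and Ankrd1, a muscle stretch gene, higher. Over all measured genes 8.54% were lower and 6.13% higher. In the low-cardiomyocyte nuclei 2 of 14 were lower and 1 higher, beside 5.51% and 4% of all measured genes. The part of flow or of cardiomyocyte RNA in these calls was not tested. Klf2 stood at 38.0 CPM in Ncx1-/-, 88.4 in Ncx1+/- and 87.6 in Ncx1+/+, on 12 counts in Ncx1-/-, 34 in Ncx1+/- and 91 in Ncx1+/+. Of 12 measured cilia genes 1 was lower, Pkd2, the polycystin-2 channel, at 76.1 CPM in Ncx1-/-, 148 in Ncx1+/- and 120.3 in Ncx1+/+. It was not called in the low-cardiomyocyte nuclei, where it stood at 61.7 CPM in Ncx1-/-, 131 in Ncx1+/- and 133 in Ncx1+/+. With 8.54% of all measured genes called lower, 1 of 12 is near the background and no result about cilia genes.

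Over all measured genes, those furthest below both other libraries were Grid1, Glis3, Eya4, Plce1, Boc, Myo1d, Plac1, Gpr137c, Galntl6, Nox4, Tmtc4 and Acyp2. Grid1, a delta-type glutamate receptor, had 2 counts in Ncx1-/-, 32 in Ncx1+/- and 164 in Ncx1+/+, or 6.34 CPM in Ncx1-/-, 83.2 in Ncx1+/- and 158 in Ncx1+/+. Its level in Ncx1+/+ was 24.9 times that of Ncx1-/-, with a counting interval of 6.78 to 207. Glis3, a zinc finger factor, stood at 12.7 CPM in Ncx1-/-, 138 in Ncx1+/- and 133 in Ncx1+/+, on 4 counts in Ncx1-/-, 53 in Ncx1+/- and 138 in Ncx1+/+. Eya4, a transcriptional co-activator and phosphatase, stood at 19.0 CPM in Ncx1-/-, 153 in Ncx1+/- and 133 in Ncx1+/+. Plce1, a phospholipase C, stood at 47.5 CPM in Ncx1-/-, 255 in Ncx1+/- and 241 in Ncx1+/+, and at 123 CPM in Ncx1-/-, 269 in Ncx1+/- and 285 in Ncx1+/+ in the low-cardiomyocyte nuclei. All of these but Myo1d, Gpr137c and Nox4 were also called lower in the low-cardiomyocyte nuclei.

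Among the genes that exceeded the other libraries most in Ncx1-/- were glycolytic genes and Rbm20, Rbm24 and Myh7, genes of heart muscle. The 12 were Dpp6, Tmem163, Atcayos, Slc2a1, Pdk1, Pfkp, Hk2, Rbm20, Slc2a3, Fam162a, Rbm24 and Myh7. Dpp6, a potassium channel partner, stood at 371 CPM in Ncx1-/-, 15.6 in Ncx1+/- and 24.1 in Ncx1+/+, against 802 CPM in Ncx1-/-, 207 in Ncx1+/- and 83.8 in Ncx1+/+ in cardiomyocyte-type nuclei. In the low-cardiomyocyte nuclei it stood at 61.7 CPM in Ncx1-/-, 15.6 in Ncx1+/- and 13.2 in Ncx1+/+ and was not called. Rbm20, a splicing regulator of titin, stood at 621 CPM in Ncx1-/-, 153 in Ncx1+/- and 159.8 in Ncx1+/+, and at 37.0 CPM in Ncx1-/-, 53.1 in Ncx1+/- and 50.1 in Ncx1+/+ in the low-cardiomyocyte nuclei. Dpp6, Tmem163, Rbm20 and Rbm24 stood in the selected nuclei of Ncx1-/- at 46.2, 43.2, 51.7 and 41.6% of their level in cardiomyocyte-type nuclei, beside 44.2% for the 12 cardiomyocyte markers, whose part in these calls was not tested.

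Cdh2 and Erbb4 changed direction in the low-cardiomyocyte nuclei. Cdh2, N-cadherin, gained in EndoMT and abundant in heart muscle, stood at 764 CPM in Ncx1-/-, 226 in Ncx1+/- and 329 in Ncx1+/+ and was called higher. In the low-cardiomyocyte nuclei it stood at 86.4 CPM in Ncx1-/-, 103 in Ncx1+/- and 158 in Ncx1+/+, lowest in Ncx1-/- and not called. Erbb4, the neuregulin receptor of heart muscle, stood at 3762 CPM in Ncx1-/-, 1711 in Ncx1+/- and 2009.7 in Ncx1+/+, higher in Ncx1-/-, but at 271 CPM in Ncx1-/-, 1081 in Ncx1+/- and 823 in Ncx1+/+ in the low-cardiomyocyte nuclei, where it was lower. Bmp5, Fgf13, Rspo3 and Slit3 were called higher in all selected nuclei and not in the low-cardiomyocyte ones. Nrp1, a VEGF and semaphorin co-receptor, was higher in both, at 796 CPM in Ncx1-/-, 447 in Ncx1+/- and 438 in Ncx1+/+ and at 876 CPM in Ncx1-/-, 331 in Ncx1+/- and 385 in Ncx1+/+ in the low-cardiomyocyte nuclei.

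Few genes set the Ncx1+/- nuclei apart: 24 (0.623%) were higher and 67 (1.74%) lower than in both other libraries. The 5 highest were Rnf17, Pld1, Plpp1, Tmsb4x and Nav3. Nav3, a microtubule-associated protein, stood at 349 CPM in Ncx1-/-, 596 in Ncx1+/- and 356 in Ncx1+/+. The 5 lowest were Rspo3, Lrrtm3, Ldb3, Filip1 and Ankrd1. Rspo3, a Wnt agonist, had 57 counts in Ncx1-/-, 4 in Ncx1+/- and 74 in Ncx1+/+, or 181 CPM in Ncx1-/-, 10.4 in Ncx1+/- and 71.2 in Ncx1+/+. In cardiomyocyte-type nuclei Rspo3 stood at 243 CPM in Ncx1-/-, 308 in Ncx1+/- and 352 in Ncx1+/+ and Ankrd1 at 1773 CPM in Ncx1-/-, 1930.5 in Ncx1+/- and 2012 in Ncx1+/+. The Ncx1+/- selected nuclei had the lowest sum of cardiomyocyte markers, 12.7% of the cardiomyocyte-type level, and its part in these calls was not tested.

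General measures of the RNA moved with genotype too. Malat1, a nuclear long non-coding RNA, took 5.97% of selected-nucleus UMIs in Ncx1-/-, 2.71% in Ncx1+/- and 3.05% in Ncx1+/+, beside 5.50% in Ncx1-/-, 2.96% in Ncx1+/- and 2.78% in Ncx1+/+ in the other endothelial-type nuclei. Of 43 measured ribosomal protein genes 7 were higher in Ncx1-/- and none lower, beside 6.13% and 8.54% of all measured genes. Their median log2 ratio was 0.83 over Ncx1+/+. In the low-cardiomyocyte nuclei 14 of 30 were higher, beside 4% of all measured genes. Mitochondrial UMIs had a median of 0.0514% in Ncx1-/-, 0.0493% in Ncx1+/- and 0.0263% in Ncx1+/+. Of 30 measured cell cycle genes none stood apart in Ncx1-/-, with Top2a, a topoisomerase of dividing cells, at 529 CPM in Ncx1-/-, 445 in Ncx1+/- and 494 in Ncx1+/+. Among low-cardiomyocyte nuclei 1 of 25 was higher, Brip1, a DNA helicase, beside 4% of all measured genes.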

How the data were processed

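Nuclei of whole mouse hearts were profiled with the 10x kit, version 3.1, per the labels' protocols, after sorting by flow cytometry. The authors deposited UMI counts per gene and barcode, with no normalisation. Cell Ranger 6.1.0 and mm10 are given per the submitters' processing notes, and version 9.0.0 per the file headers. The sources used here do not state if reads in introns count. Of 27998 gene identifiers, 27645 matched GENCODE M21.

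Members, lists and tests were chosen with earlier results of these data known. Counts were summed over nuclei and scaled to CPM. Intervals are exact (Poisson, conditional binomial or Clopper-Pearson) at 95%. log2 ratios and the calls against other endothelial-type nuclei had 0.5 counts added to each side. In single-gene folds a count of 0 was set to 3 per library. Levels compare the same gene only. Calls were run on counts simulated by Poisson draws, the model that the intervals assume. The simulated counts had no spread between nuclei or pools of hearts, so they cannot check the genotype calls. No nuclei were removed as doublets: Scrublet's automatic threshold called 0 in Ncx1-/-, so the top 8% of scores served as an alternative. Alternatives also varied the rule, scaling (TMM from edgeR 4.0.16, median-of-ratios), count minimum and fold. Named genes were a fixed set, the 15 highest and 10 lowest against other endothelial-type nuclei, the 12 and 12 of Ncx1-/-, the 5 and 5 of Ncx1+/-, list members standing apart and cell type markers. Predicted genes and those of ribosomes, mitochondria, haemoglobin, with a few sex-linked genes, were not ranked. Promoters come from RefSeq, build GRCm38.p6. Scrublet was run in scanpy 1.11.5, and files were read with scipy 1.17.1 and pandas 2.3.3. A few genes are not reported here.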

Additional observations from a re-analysis of the deposited data

How the results depend on the processing

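Each library is 1 pool of hearts, so that no library could be left out within a genotype. No paired analysis was possible because there is 1 library per genotype and no replicate numbers are shared. The share of selected nuclei kept its order between libraries under every setting of the rule run. In the order Ncx1-/-, Ncx1+/- and Ncx1+/+ it was 0.668, 1.08 and 2.65% with at least 3 marker genes, 0.822, 1.66 and 2.04% at 2000 UMIs and 0.936, 2.60 and 4.41% without nuclei above 0.468% cardiomyocyte marker UMIs. With at least 6 endothelial genes it was 1.73, 1.96 and 3.31%, and for low-cardiomyocyte nuclei, a setting added after seeing the data, 1.29, 3.35 and 5.82%.

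Counts of genes called higher and lower moved more. In Ncx1-/- they were 101 and 204 with at least 3 marker genes, 9 and 30 at 2000 UMIs, 102 and 163 without nuclei above that marker share, 74 and 190 at a minimum of 300 counts and 102 and 123 at 2-fold. They were 529 and 383 with no count minimum, 182 and 494 with TMM factors, 147 and 245 with at least 6 endothelial genes and 109 and 150 in low-cardiomyocyte nuclei. In selected nuclei with a Sox9 UMI, also added after seeing the data, they were 117 and 200. In Ncx1+/- they were 12 and 36 without the top 8% of doublet scores, 29 and 32 with at least 3 marker genes, 2 and 0 at 2000 UMIs and 6 and 13 without nuclei above that marker share. They were 49 and 123 with no count minimum, 2 and 21 at 300 counts, 2 and 32 at 2-fold, 7 and 13 in low-cardiomyocyte nuclei and 13 and 33 with a Sox9 UMI. Against other endothelial-type nuclei, 530 and 142 genes were called at 2000 UMIs, 81 and 90 at 2-fold, and 530 and 617 without the Ncx1-/- library, again added after seeing the data. The cause of these moves was not tested, beside fewer nuclei or fewer counts where a setting leaves them out.

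Of 520 values of gene lists under the alternatives 370 stayed within the limit set for a move, 150 moved and 0 reversed. Of 299 values of single genes 219 stayed, 74 moved and 6 reversed. On the log2 scale of Ncx1-/- over Ncx1+/+, Epha3 was 0.67 and Twist1 0.34 at 2000 UMIs, where 14 Ncx1-/- nuclei remained. Cdh2 was -0.29 without nuclei above 0.468% cardiomyocyte marker UMIs, -0.78 in low-cardiomyocyte nuclei and -0.58 with a Sox9 UMI, where Sox9 was 0.032. The cause was not tested. Depth limits Ncx1-/- most: its selected nuclei held 315483 UMIs, so that a gene at 10 CPM has about 3 counts there.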

Other observations

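Nuclei with the same marker set but fewer than 4 endothelial genes were not selected and ran in another order between libraries, with 282 in Ncx1-/-, 147 in Ncx1+/- and 218 in Ncx1+/+. They had high Robo2, at 725 CPM in Ncx1-/-, 947 in Ncx1+/- and 1186 in Ncx1+/+, and high Slc8a1, at 807 CPM in Ncx1-/-, 5043 in Ncx1+/- and 7744 in Ncx1+/+. Hapln1 stood there at 183 CPM in Ncx1-/-, 1094 in Ncx1+/- and 1597 in Ncx1+/+, below its level in selected nuclei of each library. Epha3 stood at 52.3 CPM in Ncx1-/-, 193 in Ncx1+/- and 285 in Ncx1+/+ and Twist1 at 28.9 CPM in Ncx1-/-, 80.0 in Ncx1+/- and 78.5 in Ncx1+/+. Among all nuclei with at least 4 endothelial genes and at least 2 marker genes, whatever their other sets, there were 125 in Ncx1-/-, 156 in Ncx1+/- and 307 in Ncx1+/+.

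Cell states marked by other sets did not all share the order of the selected nuclei. The set with Grin2c, Etv2, Kit and Mrc1 marked 237 nuclei in Ncx1-/-, 82 in Ncx1+/- and 70 in Ncx1+/+. The set with Cyp26a1, Pcdh17, Pak7 and St8sia4 marked 77 nuclei in Ncx1-/-, 30 in Ncx1+/- and 23 in Ncx1+/+. The set with Dkk2, Ano1, St6galnac5 and Pmepa1 marked 0 of 2244 endothelial-type nuclei in Ncx1-/-, which allows a share of up to 0.134%. These sets were taken with earlier results of these data known, and the counts are given as a description.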
